A study of Mus musculus with 48 samples.

Results

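Cyp2d9, Cyp7b1, Elovl3, Selenbp2, Nudt7 and Gstp1 are mouse liver genes that textbooks list among the targets of testicular hormones or of the male pattern of growth hormone (GH). They were followed across livers of FCG mice, a model of core genotypes in which the type of gonad and the sex chromosomes are inherited separately. The 6 genes were picked by symbol from a liver RNA-seq table of 55414 genes, each symbol matched 1 gene, and all 6 were among the 15414 genes that passed the filter on low counts. The 48 mice formed 8 groups of 6. Mice with ovaries (Ov) were XX or XY-, where the minus sign marks a Y chromosome that has lost the testis-determining gene Sry. Mice with testes (Te) were XX;SryTg or XY-;SryTg and carried Sry as a transgene, and the genotypes are written XX Ov, XY Ov, XX Te and XY Te. All mice ate a high-fat diet (HFD) with 60% of its calories from fat, begun at 15 to 17 weeks of age. By the labels, Intact mice ate it for 11 weeks, and gonadectomized (GDX) mice, which lost their gonads at 75 days of age, for 15 weeks. The methods of the study name an Intact and a GDX cohort and give slightly different lengths, also longer for GDX mice. Gonadal status, cohort, weeks of HFD and age at the end of the diet therefore cannot be told apart here. Gonad type and the Sry transgene cannot be told apart either, nor can the number of X chromosomes and the presence of a Y.

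In mice, males release GH in pulses and females more evenly, and hepatocytes read the pattern through the GH receptor and the transcription factor STAT5B. BCL6, which is higher in male liver, and CUX2, which is higher in female liver, are transcriptional repressors that act within this pattern, and androgens act on the liver mainly by setting the pituitary rhythm. The 6 genes work in separate pathways. Cyp2d9 encodes a steroid 16-alpha-hydroxylase of the cytochrome P450 family, and Cyp7b1 the oxysterol 7-alpha-hydroxylase of the alternative route to bile acids. Elovl3 encodes an elongase of very-long-chain fatty acids, and Nudt7 a peroxisomal diphosphatase that degrades coenzyme A and its acyl esters. Gstp1 encodes a pi-class glutathione S-transferase, which conjugates electrophiles to glutathione, and Selenbp2 a selenium-binding protein known for binding a metabolite of acetaminophen.

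Selenbp2 and Gstp1 each have a near-identical neighbour, Selenbp1 and Gstp2, whose reads could be confused with theirs, and Cyp2d9 was the member with the largest difference left after GDX. Their promoters are therefore shown, each as the 250 bases before the transcription start, 5′ to 3′ on the coding strand, from RefSeq on build GRCm38.p6. Capitals mark matches, on either strand, to the TATA box letters TATAA, to the CCAAT box or to the AP-1 motif TGANTCA. Overlapping matches are joined into 1 stretch.
Cyp2d9, chr15:82452127-82452376, plus strand: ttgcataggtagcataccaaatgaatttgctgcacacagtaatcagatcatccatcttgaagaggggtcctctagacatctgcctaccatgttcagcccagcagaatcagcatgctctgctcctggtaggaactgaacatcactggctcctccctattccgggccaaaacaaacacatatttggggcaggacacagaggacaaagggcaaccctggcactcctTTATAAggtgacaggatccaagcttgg
Selenbp2, chr3:94693323-94693572, plus strand: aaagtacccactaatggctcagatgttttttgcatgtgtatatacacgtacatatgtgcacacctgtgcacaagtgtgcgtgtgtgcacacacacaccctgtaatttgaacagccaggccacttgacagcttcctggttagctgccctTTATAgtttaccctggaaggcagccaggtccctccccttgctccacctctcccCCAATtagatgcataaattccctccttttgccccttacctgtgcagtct
Selenbp1, chr3:94932833-94933082, plus strand: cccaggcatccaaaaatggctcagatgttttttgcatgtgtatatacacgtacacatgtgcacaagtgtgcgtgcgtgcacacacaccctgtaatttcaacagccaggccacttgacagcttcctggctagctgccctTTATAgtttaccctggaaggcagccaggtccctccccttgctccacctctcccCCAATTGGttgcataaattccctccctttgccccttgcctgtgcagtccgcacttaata
Gstp1, chr19:4037913-4038162, minus strand: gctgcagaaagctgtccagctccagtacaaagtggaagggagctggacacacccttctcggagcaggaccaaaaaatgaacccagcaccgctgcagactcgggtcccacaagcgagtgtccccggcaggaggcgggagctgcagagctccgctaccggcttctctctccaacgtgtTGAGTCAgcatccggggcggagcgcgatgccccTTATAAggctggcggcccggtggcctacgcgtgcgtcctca
Gstp2, chr19:4042222-4042471, minus strand: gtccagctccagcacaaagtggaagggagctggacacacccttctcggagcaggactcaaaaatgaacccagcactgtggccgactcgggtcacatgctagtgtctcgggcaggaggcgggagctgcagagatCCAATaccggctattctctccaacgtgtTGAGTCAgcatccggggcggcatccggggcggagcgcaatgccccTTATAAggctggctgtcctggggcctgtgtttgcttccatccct

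Among 32851 RefSeq promoter windows of the same length, 22.8% held TATAA, 33.8% held CCAAT and 6.75% held TGANTCA. The Selenbp2 and Selenbp1 windows were identical at 225 aligned bases, with 13 mismatches and 24 gapped positions, and the Gstp1 and Gstp2 windows at 208, with 27 mismatches and 30 gapped positions. None of the 5 windows held the STAT5 and BCL6 core TTCNNNGAA, which 7.02% of promoters held, or the androgen receptor hexamer TGTTCT, which 16.1% held. The full androgen receptor site, searched as a palindrome of that hexamer with a spacer, was in none of them and in 0.00913% of promoters. These counts describe letters within 250 bases and do not bear on what binds elsewhere. Nudt7 has a pair of annotated start sites, and neither window held any of the 6 motifs. Cyp7b1 and Elovl3 had no entry.

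Between 13071874 and 20045141 reads were assigned to genes per liver, with a median of 16577748. CPM is the read count relative to the library size, scaled by edgeR's trimmed mean of M-values (TMM). Without this scaling, 3 reads correspond to between 0.150 and 0.230 CPM, and the Y-linked values below are unscaled as well. Reads outside annotated genes made up 3.47% to 6.20% of all reads in Intact mice and 8.52% to 11.3% in GDX mice, without overlap, and multimapping reads 10.7% to 18.9% and 8.59% to 10.8%. The makeup of the libraries thus moves with GDX, and its part in the GDX comparisons cannot be told apart from theirs. Xist and 4 Y-linked genes separated all 24 XX from all 24 XY mice. XX Te Intact mouse 4 had 10.6 CPM of summed Y-linked reads against at most 2.92 CPM in the other XX mice and at least 146 CPM in XY mice. The summed hepatocyte markers ranged from 66458 to 147338 CPM in Intact mice. The GDX ranges were narrower and lay inside it, at 82563 to 119458 CPM in Ov and 85711 to 115117 CPM in Te mice. Lymphocyte and Kupffer cell markers were lower in Te than in Ov Intact livers in 4 of 6 and 3 of 6 genes. Of all tested genes 14.1% were lower. The median sums of these markers were 3.16 against 6.81 CPM and 297 against 543 CPM. Their part in the results was not tested. In whole liver, fewer cells of a type and less RNA per cell cannot be told apart.

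The first question was how strongly the 6 genes depended on the type of gonad when the gonads were in place. All 6 were higher in Te than in Ov Intact mice (edgeR's quasi-likelihood test, p-values adjusted after Benjamini and Hochberg), where 11.3% of all tested genes were. The median log2 fold change of the members was 2.38 and that of all genes -0.04. Elovl3 and Cyp2d9 differed most.

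Cyp2d9 ranged from 9.17 to 68.5 CPM in the 12 Ov Intact mice, with a median of 23.1, and from 278 to 740.5 CPM in the 12 Te Intact mice, with a median of 549. Every Te mouse lay above every Ov mouse, with means of 538 ± 134 and 26.9 ± 14.3 CPM (SD, n = 12 each). The log2 fold change was 4.34 ± 0.22 (SE, adjusted p = 1.30e-19 by edgeR's quasi-likelihood test), the smallest p of all 15414 genes. Elovl3 ranged from 0.729 to 11.1 CPM in Ov mice (median 5.34) and from 57.1 to 185 CPM in Te mice (median 131). Its arms did not overlap either, and its mean was 24.2-fold higher in Te mice. The log2 fold change of 4.58 ± 0.28 (SE, adjusted p = 4.65e-17, edgeR) was the largest of the members.

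Cyp7b1 lay between 13.5 and 49.4 CPM in Ov mice (median 25.5) and between 57.1 and 522 CPM in Te mice (median 118). The arms were separate, with a log2 fold change of 2.38 ± 0.22 (SE, adjusted p = 9.56e-12, edgeR). Cyp2d9, Elovl3 and Cyp7b1 were thus 3 of 6 members with every Te mouse above every Ov mouse, a pattern shown by 0.376% of tested genes. Within XX mice the same 3 members were separate (0.986% of genes), and within XY mice 5 of 6 were, all but Nudt7 (1.8% of genes).

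Gstp1 lay between 71.3 and 194 CPM in Ov mice (median 90.3) and between 167 and 850.3 CPM in Te mice (median 282). A single XX Ov mouse reached into the Te range, and 11 of 12 Te mice lay above every Ov mouse. The log2 fold change was 1.71 ± 0.17 (SE, adjusted p = 6.34e-11, edgeR). Nudt7 lay between 148 and 597 CPM in Ov mice (median 329) and between 304 and 1639 CPM in Te mice (median 595). Its arms overlapped widely, with 6 of 12 Te mice above every Ov mouse, and its log2 fold change of 0.97 ± 0.21 (SE, adjusted p = 0.000582, edgeR) was the smallest of the members.

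Selenbp2 lay between 2.55 and 6.41 CPM in Ov mice (median 4.03) and between 4.40 and 261 CPM in Te mice (median 7.84). XY Te Intact mice 2 and 3 made up the top of the Te range, and 10 of 12 Te mice lay above every Ov mouse. The log2 fold change was 2.39 ± 0.42 (SE, adjusted p = 3.28e-05, edgeR) with all mice and 0.99 (adjusted p = 0.00278, edgeR) without these 2 mice. Without them the other members kept log2 fold changes of 4.53 for Elovl3, 4.32 for Cyp2d9, 2.04 for Cyp7b1, 1.52 for Gstp1 and 0.71 for Nudt7, all past the threshold.

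**Figure D1:**
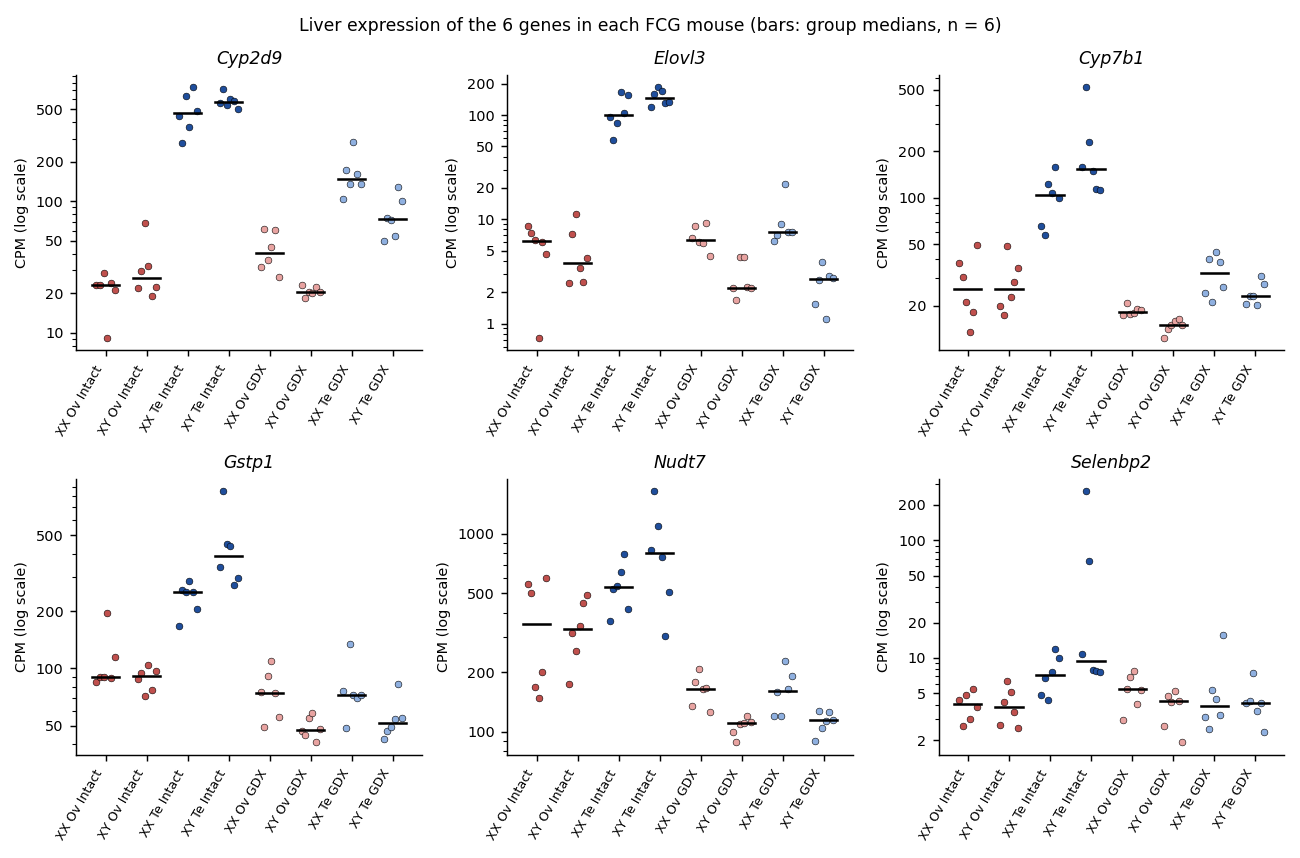
CPM on a log axis for each of the 6 genes, 1 point per mouse in the 8 groups, with a bar at the group median. Cyp2d9, Elovl3 and Cyp7b1 show every Te Intact mouse above every Ov Intact mouse, and Cyp2d9 keeps a step between Te GDX and Ov GDX mice.

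The second question was how the levels changed after removal of the testes or of the ovaries. All 6 genes were lower in Te GDX than in Te Intact mice by edgeR's quasi-likelihood test, against 29.9% of all tested genes. Only 3 of 6 were lower in Ov GDX than in Ov Intact mice, against 33.4% of all genes. The gonadal comparison of Intact mice and the castration comparison share the 12 Te Intact mice, so their values stand side by side and are not independent of each other.

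Elovl3 fell from a median of 131 CPM in Te Intact to 5.02 CPM in Te GDX mice, where it ranged from 1.11 to 21.6 CPM. No GDX mouse reached the Te Intact range, and the log2 change was -4.71 ± 0.28 (SE, adjusted p = 2.02e-17, edgeR). After ovariectomy Elovl3 changed by -0.29 ± 0.26 (SE, log2, adjusted p = 0.327, edgeR), with 1.70 to 9.29 CPM in Ov GDX mice (median 4.42). This averages mean log2 CPM of 2.22 in Intact and 2.75 in GDX XX Ov mice (exact permutation p = 0.433). In XY Ov mice they were 2.17 and 1.47 (0.128).

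Cyp2d9 fell from a median of 549 to 116 CPM, with 50.3 to 282 CPM in Te GDX mice. The highest GDX mouse lay just above the lowest Te Intact mouse, so 11 of 12 Te Intact mice were above every GDX mouse. The log2 change was -2.22 ± 0.20 (SE, adjusted p = 3.64e-12, edgeR), and after ovariectomy it was 0.19 ± 0.19 (SE, adjusted p = 0.378, edgeR). The ovariectomy value averages opposite directions. Mean log2 CPM was 4.36 in Intact and 5.38 in GDX XX Ov mice (exact permutation p = 0.00433, adjusted 0.00808). In XY Ov mice it was 4.87 and 4.38 (0.0779, adjusted 0.110). Whether the ovariectomy change differed between XX and XY mice was not tested.

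Cyp7b1, Gstp1 and Nudt7 were lower after removal of either gonad. Cyp7b1 changed by -2.40 ± 0.22 after castration (log2, SE, adjusted p = 4.74e-12, edgeR) and by -0.78 ± 0.21 after ovariectomy (adjusted p = 0.00120), with medians of 25.2 and 16.9 CPM in Te and Ov GDX mice. Gstp1 changed by -2.29 ± 0.17 and -0.70 ± 0.16 (log2, SE, adjusted p = 2.16e-14 and 0.000201, edgeR), to medians of 62.1 and 55.0 CPM. Nudt7 changed by -2.33 ± 0.22 and -1.41 ± 0.21 (log2, SE, adjusted p = 1.04e-11 and 1.95e-07, edgeR), to medians of 123 CPM in both arms. Nudt7, the peroxisomal enzyme, was the member with the largest fall after ovariectomy.

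Selenbp2 changed by -2.10 ± 0.41 after castration (log2, SE, adjusted p = 2.74e-05, edgeR), and by -0.69 (adjusted p = 0.0148) without XY Te Intact mice 2 and 3. After ovariectomy its change was 0.16 ± 0.42 (SE, adjusted p = 0.740, edgeR), with a median of 4.51 CPM in Ov GDX mice. Only 2 of 12 Te Intact mice lay above every Te GDX mouse. For Cyp7b1, Elovl3, Nudt7 and Gstp1, 4 of 6 members, every Te GDX mouse lay below every Te Intact mouse, against 2.26% of all tested genes. After ovariectomy 0 of 6 members were separate in this way, against 8.06% of genes.

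All GDX mice shared the cohort, the longer HFD and the other library makeup. The castration effect was therefore also set against the ovariectomy effect in a test of their difference on the log scale. For all 6 members the change after castration lay below that after ovariectomy, where it did for 2.82% of all tested genes. Cyp2d9 and Selenbp2 had no fall after ovariectomy. By construction this contrast is also the gonadal difference of GDX mice minus that of Intact mice. Where little was left in GDX mice it largely repeats the Intact difference with its sign turned, and it is not independent of it. The difference was -4.42 for Elovl3 (adjusted p = 1.37e-11), -2.41 for Cyp2d9 (2.77e-08), -1.62 for Cyp7b1 (0.000319) and -1.59 for Gstp1 (5.49e-06) by edgeR's quasi-likelihood test. It was -2.26 for Selenbp2 (adjusted p = 0.0139, edgeR) and -0.86 (0.0913) without XY Te Intact mice 2 and 3. It was -0.93 for Nudt7 (adjusted p = 0.0494, edgeR) and -0.67 (0.111) without these mice, and the Nudt7 call was lost in 36 of 48 fits that left out 1 mouse.

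**Figure D2:**
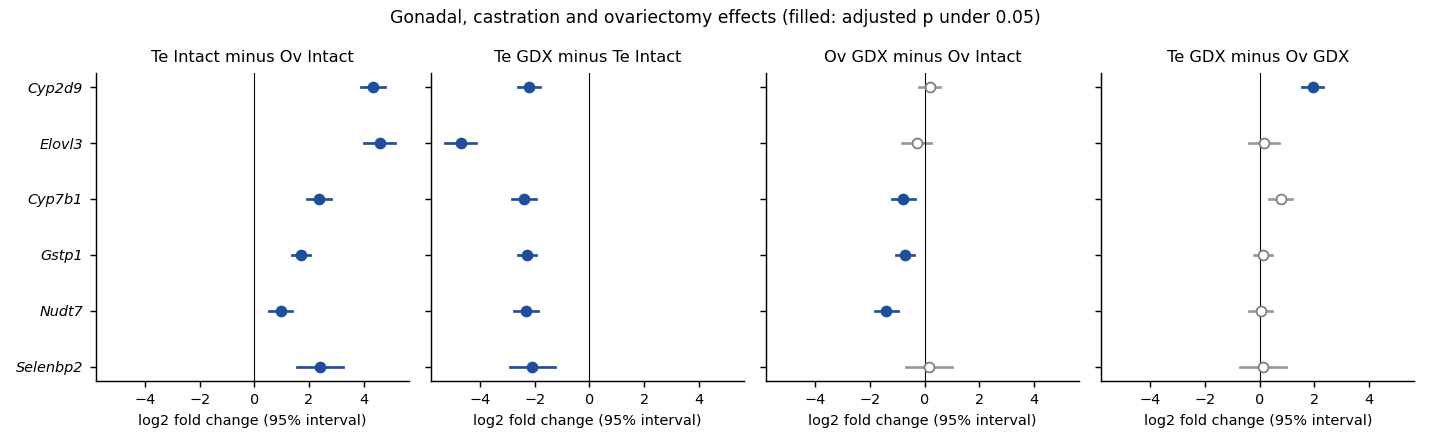
Log2 fold changes with 95% intervals of the 6 genes in the gonadal comparison of Intact mice, after castration, after ovariectomy and in GDX mice, with points filled where the adjusted p was under 0.05. All 6 are above 0 in Intact mice and below 0 after castration, from -2.10 for Selenbp2 to -4.71 for Elovl3.

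The next question was whether a difference between former testis and former ovary bearers was left after GDX. Of all 15414 genes, 14 (0.0908%) passed the threshold in this comparison by edgeR's quasi-likelihood test, 5 of them higher in Te GDX mice (0.0324%), and 475 had an unadjusted p under 0.05. Cyp2d9 was the only member among them and had the smallest p of all genes.

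Cyp2d9 lay between 18.4 and 61.7 CPM in Ov GDX mice (median 24.8) and between 50.3 and 282 CPM in Te GDX mice (median 116). The arms overlapped, with 10 of 12 Te mice above every Ov mouse. The log2 fold change was 1.93 ± 0.20 (SE, adjusted p = 1.60e-08, edgeR), smaller than the 4.34 of Intact mice. Among XX GDX mice, the 6 Te lay at 104 to 282 CPM and the 6 Ov at 26.5 to 61.7 CPM. Among XY GDX mice, the 6 Te lay at 50.3 to 129 CPM and the 6 Ov at 18.4 to 23.1 CPM. Neither pair overlapped, and the differences of mean log2 CPM were 1.91 and 1.87 (exact permutation p = 0.00216 each, two-sided, the smallest that 6 against 6 allows, and 0.00438 after adjustment over all pairs of groups and genes).

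Cyp7b1 behaved alike within each genotype, although it missed the threshold over all genes, with a log2 fold change of 0.76 ± 0.21 (SE, unadjusted p = 7.64e-04, adjusted p = 0.357, edgeR). Fitted on the 4 GDX groups alone, the adjusted p was 0.000584 (edgeR). No other alternative brought it past the threshold, and its adjusted p reached 0.708 in the fits that left out 1 mouse (edgeR). Te GDX mice lay at 20.2 to 44.8 CPM (median 25.2) and Ov GDX mice at 12.4 to 20.9 CPM (median 16.9), with 10 of 12 Te mice above every Ov mouse. The differences of mean log2 CPM were 0.75 within XX and 0.70 within XY mice, again without overlap (exact permutation p = 0.00216 each, two-sided). Cyp2d9 and Cyp7b1 were thus 2 of 6 members separate within XX and within XY GDX mice, against 0.169% and 0.13% of all genes.

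The other 4 members gave log2 fold changes of 0.16 for Elovl3, 0.12 for Selenbp2, 0.12 for Gstp1 and 0.04 for Nudt7 (adjusted p = 1 each, edgeR). Their Te GDX and Ov GDX mice overlapped within both genotypes. The next 3 genes stand beside Cyp2d9 among the 14 and were chosen after their values were seen. Rassf3 was 0.53 higher, the membrane protein gene Tmem19 0.58 higher and the P450 gene Cyp2u1 1.21 higher in Te GDX mice on the log2 scale (edgeR), and all 3 were also higher in Te Intact mice, by 1.09, 0.99 and 3.32.

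Ordered by mean log2 CPM over the 8 groups, all 6 genes had XY Te Intact mice first and XX Te Intact mice second. Exact two-sided permutation tests of 6 against 6 mice were run on all 28 pairs of groups for each gene, and 107 passed after Benjamini-Hochberg adjustment. Of the 42 pairs of neighbours in the order, 12 had an unadjusted exact p under 0.05. In Cyp2d9 the order had 3 such steps, from XX Te Intact to XX Te GDX (exact p = 0.00433, adjusted 0.00808), on to XY Te GDX (0.00433, adjusted 0.00808) and on to XX Ov GDX mice (0.0173, adjusted 0.0282). Its other neighbours in the order did not differ beyond their spread. Ov groups farther apart in the order did. XX Ov GDX mice lay above XY Ov GDX mice (exact p = 0.00216, adjusted 0.00438) and above XX Ov Intact mice (0.00433, adjusted 0.00808).

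Elovl3 had 1 step, below XX Te Intact mice (exact permutation p = 0.00216, adjusted 0.00438), and its 6 lower groups followed each other without a step. Among these lower groups, XX and XY Te GDX mice, which were not neighbours, differed (exact p = 0.00216, adjusted 0.00438). Cyp7b1 stepped below XX Te Intact mice (exact p = 0.00216), between XY Te GDX and XX Ov GDX mice (0.00649) and between XX and XY Ov GDX mice (0.00216). It also stepped between XY and XX Te Intact mice (exact p = 0.0433), which did not hold after adjustment (0.0661). Gstp1 stepped from XY to XX Te Intact and on to XX Ov Intact mice (exact p = 0.00433 and 0.00433). Nudt7 stepped below XX Te Intact mice (exact p = 0.0260) and between XX and XY Te GDX mice (0.0152), and Selenbp2 had no step between neighbours.

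XY Te Intact mice 2 and 3 stood apart in part of the genes. In mouse 2, Selenbp2 was at 261 CPM (3350 reads), 33.3 times the median of the 12 Te Intact mice, and in mouse 3 at 66.4 CPM, 8.48 times the median. The other 4 XY Te Intact mice had 7.55 to 10.8 CPM. Selenbp1 was at 99.1 CPM in mouse 2, the lowest Te Intact value, and at 126 CPM in mouse 3. Gstp2 was at 1.09 and 1.53 CPM, inside the Te Intact range of 0.599 to 1.94 CPM.

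Cyp7b1, Gstp1 and Nudt7 were also highest in mouse 2, at 522, 850.3 and 1639 CPM or 4.41, 3.02 and 2.76 times the Te Intact median. In mouse 3 they were at 232, 449.5 and 1096 CPM, which is 1.96, 1.59 and 1.84 times the median. Cyp2d9 and Elovl3 lay closer to the median there. Mouse 2 had 718 and 159 CPM (1.31 and 1.21 times the median), and mouse 3 had 541 and 185 CPM (0.986 and 1.41 times). Counted from the highest of the 12, mice 2 and 3 took places 2 and 7 for Cyp2d9, and 4 and 1 for Elovl3. Mouse 2 had the largest shares of unmapped and multimapping reads of all 48 libraries (16.5% and 18.9%) and mouse 3 had 14.3% and 16.2%. Multimapping shares were also high in XY Te Intact mice 1 and 4, at 18.1% and 16.7%, where Selenbp2 was at 10.8 and 7.93 CPM. The group median was 16.4% in XY and 13.6% in XX Te Intact mice. In mice 2 and 3 the summed lymphocyte markers were 3.58 and 5.0 CPM and the Kupffer cell markers 317 and 671 CPM. These lay inside the Te Intact ranges of 1.58 to 8.13 and 210 to 706 CPM. The part of these library values in the levels was not tested.

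**Figure D3:**
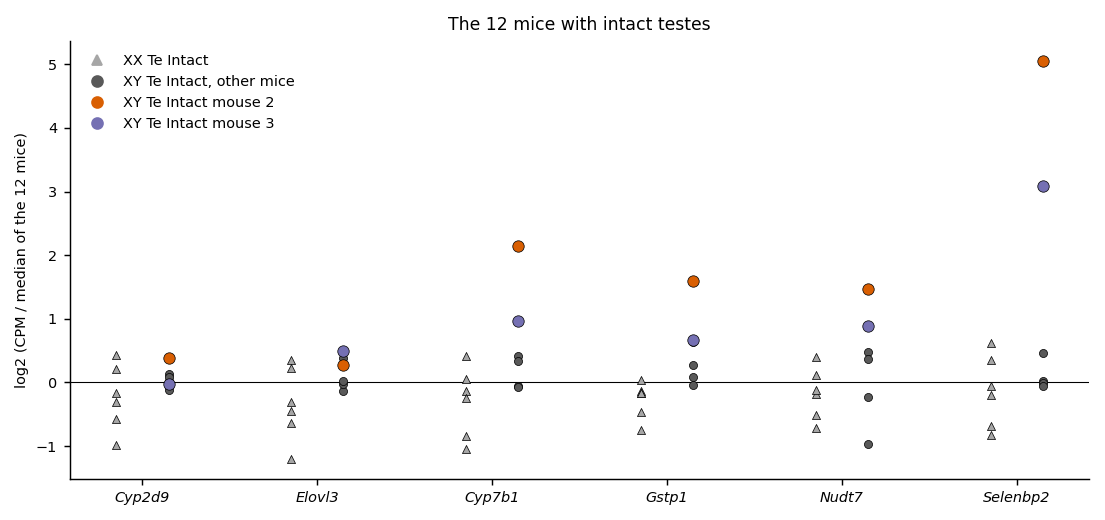
Log2 of CPM over the median of the 12 Te Intact mice, for each of the 6 genes in each of these mice. XY Te Intact mouse 2 stands highest for Selenbp2, Cyp7b1, Gstp1 and Nudt7, and not for Cyp2d9 or Elovl3.

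Across the 12 Te Intact mice the log2 CPM of all 15 pairs of members correlated with a positive sign, and 7 pairs passed after adjustment over the 15 relations (100000 permutations). Cyp7b1 and Nudt7 gave r = 0.84 (permutation p = 0.000600, adjusted 0.00225) and rho = 0.81 (adjusted 0.0172), with r = 0.84 without the 2 mice farthest from the median of Cyp7b1. Nudt7 and Gstp1 gave r = 0.85 (permutation p = 0.000540, adjusted 0.00225) and rho = 0.71 (adjusted 0.0424), with r = 0.86 without the 2 farthest mice. The mice left out were XX and XY Te Intact mouse 2 for the former pair and XY Te Intact mice 2 and 5 for the latter. XY Te Intact mouse 3 stayed in for both pairs. Both pairs kept a positive sign within XX mice (0.68 and 0.83) and within XY mice (0.89 and 0.89).

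Selenbp2 and Gstp1 gave r = 0.84 (permutation p = 0.00234, adjusted 0.00585) and rho = 0.62 (adjusted 0.0688). Their r fell to 0.33 without XY Te Intact mice 2 and 3, and that of Selenbp2 and Nudt7 from 0.81 to 0.44, so these relations rest on those mice. Cyp2d9 and Elovl3, the members with the largest gonadal difference, gave r = 0.39 (permutation p = 0.207, adjusted 0.222) and rho = 0.08, and r = -0.04 without the 2 farthest mice.

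The sex chromosomes were compared as XX minus XY. Over all 48 mice only Elovl3 was higher in XX mice, by 0.73 ± 0.18 (log2, SE, adjusted p = 0.00123, edgeR), where 21.9% of all tested genes were. Cyp2d9 gave 0.32 (adjusted p = 0.0592, edgeR). Te Intact and GDX mice were also tested separately.

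Among Te Intact mice, Selenbp2, Cyp7b1 and Gstp1 were lower in XX than in XY mice, 3 of 6 members against 1.45% of all tested genes. The log2 differences were -2.98 ± 0.58 (SE, adjusted p = 0.00155, edgeR), -1.07 ± 0.29 (0.0379) and -0.90 ± 0.23 (0.0234). The XY group also had the higher multimapping shares, whose part was not tested. All 3 calls rested on the mice that stood apart. Without XY Te Intact mice 2 and 3 the differences were -0.15, -0.37 and -0.51 (adjusted p = 1, 0.799 and 0.387, edgeR), and without mouse 2 alone -1.39, -0.58 and -0.60 (0.0903, 0.334 and 0.161). The Cyp7b1 call was also lost without XX Te Intact mouse 1, 2, 4 or 6 or XY Te Intact mouse 3, and that of Gstp1 without XX Te Intact mouse 1 or 6.

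Gstp1 lay between 167 and 289 CPM in XX Te Intact mice (median 251) and between 275 and 850.3 CPM in XY Te Intact mice (median 389). The ranges overlapped at their ends, and 0 of 6 members had every XX mouse below every XY mouse, which 0.162% of genes did. For Cyp2d9 the XY range lay inside the XX range, and for Nudt7 the XX range inside the XY range. Nudt7, Elovl3 and Cyp2d9 gave -0.65, -0.44 and -0.24 (adjusted p = 0.315 for Nudt7, edgeR).

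Among GDX mice 4 of 6 members were higher in XX than in XY mice, where 19.5% of all tested genes were. Elovl3 was higher by 1.64 ± 0.27 (log2, SE, adjusted p = 3.97e-06, edgeR), Cyp2d9 by 1.05 ± 0.19 (2.31e-05), Gstp1 by 0.57 ± 0.16 (0.00458) and Nudt7 by 0.57 ± 0.21 (0.0276). Cyp7b1 gave 0.38 (adjusted p = 0.168, edgeR) and Selenbp2 0.46 (0.421). Scaled by library totals instead of TMM, the median of all genes moved from 0.08 to -0.10, and Gstp1 (0.41, adjusted p = 0.0720, edgeR) and Nudt7 (0.40, 0.103) no longer passed. Nudt7 also missed the threshold without XY Te Intact mice 2 and 3, which enter only through the shared estimate of spread and the scaling (0.49, adjusted p = 0.0542, edgeR).

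Elovl3 lay between 6.15 and 21.6 CPM in XX Te GDX mice (median 7.58) and between 1.11 and 3.89 CPM in XY Te GDX mice (median 2.66). In Ov GDX mice it lay between 4.46 and 9.29 CPM with XX (median 6.33) and between 1.70 and 4.39 CPM with XY chromosomes (median 2.20). Elovl3 was the only member without overlap in both arms, and the only one of 6 among Te GDX mice, where 6.43% of genes showed this. Among Ov GDX mice Cyp2d9, Cyp7b1, Elovl3 and Nudt7 were all separate, 4 of 6 members against 10.4% of genes.

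Markers of other cell types moved with the same comparison. Kupffer cell markers were lower in XX than in XY GDX mice in 5 of 6 genes, lymphocyte markers in 5 of 6 and neutrophil markers in 4 of 4, and cholangiocyte markers were higher in 3 of 5 (edgeR). Of all tested genes 14.8% were lower and 19.5% higher in XX GDX mice. The part of these markers in the member values was not tested.

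**Figure D4:**
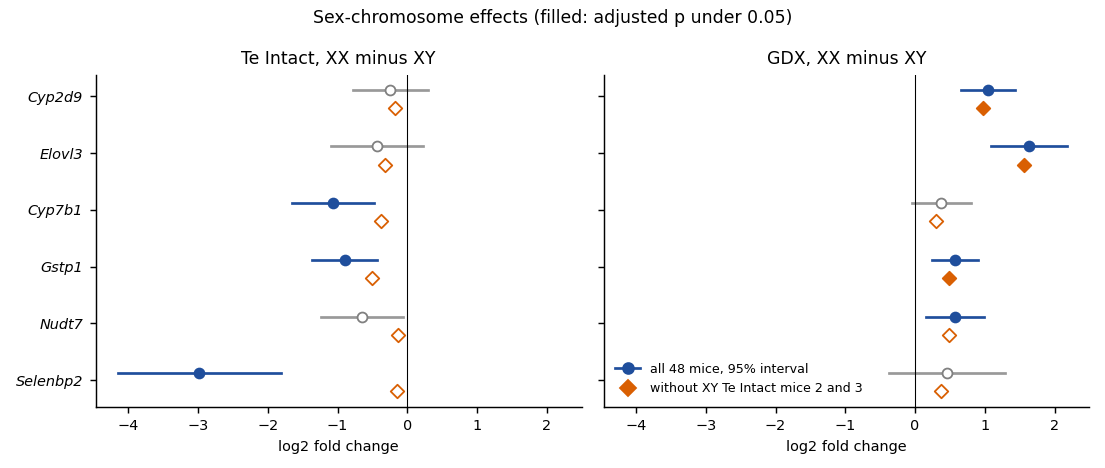
Log2 differences XX minus XY of the 6 genes among Te Intact and among GDX mice, as circles with 95% intervals for all 48 mice and as diamonds without XY Te Intact mice 2 and 3, filled where the adjusted p was under 0.05. Selenbp2 moves from -2.98 to -0.15 when the 2 mice are left out, and Elovl3 is at 1.64 in GDX mice.

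Whether the gonadal effect of Intact mice depended on the sex chromosomes was tested as an interaction. None of the 15414 genes (0%) passed by edgeR's quasi-likelihood test, 989 had an unadjusted p under 0.05 and DESeq2 called 2. The member values were -2.95 for Selenbp2 (adjusted p = 0.368, edgeR), -1.22 for Gstp1 (0.316) and -1.05 for Cyp7b1 (0.696). The castration effect was smaller in size in XX than in XY mice for 4 of 6 members, an interaction that 0.564% of genes passed in this direction. It was 3.4 for Selenbp2 (adjusted p = 0.0259, edgeR), 2.44 for Elovl3 (0.0203), 1.49 for Cyp7b1 (0.0441) and 1.42 for Gstp1 (0.0237), and 1.28 for Cyp2d9 (0.0603) and 1.18 for Nudt7 (0.122). None of the 6 passed without XY Te Intact mice 2 and 3, with 0.49 left for Selenbp2, 0.72 for Cyp7b1, 0.95 for Gstp1 and 2.25 for Elovl3 (adjusted p = 0.0808 for Elovl3, edgeR). None passed without XY Te GDX mouse 1 either, which left 4 genes called of 340 with all mice. The Elovl3, Gstp1 and Selenbp2 calls were also lost without XX Te Intact mouse 2, and that of Cyp7b1 in 21 of 48 fits that left out 1 mouse.

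The near-identical relatives were examined because reads of a member and its copy can be split or lost in counting. Of all 50-base windows of the coding transcripts, 67.5% of Gstp1 were also in Gstp2, 45.5% of Selenbp2 in Selenbp1 and 29.0% of Cyp2d9 in other genes, 11.1% in Cyp2d12. For Nudt7 the share was 0.304%, and Cyp7b1 and Elovl3 shared none. The levels of Gstp1, Selenbp2 and Cyp2d9 are uncertain in this respect. How many of their reads were split or lost was not tested.

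Selenbp1 did not follow Selenbp2. It lay between 101 and 184 CPM in Ov Intact mice (median 139) and between 99.1 and 163 CPM in Te Intact mice (median 134), with a log2 difference of -0.07 ± 0.07 (SE, adjusted p = 0.499, edgeR). After castration it rose by 0.27 (adjusted p = 0.00195, edgeR), to a median of 162 CPM, while Selenbp2 fell. Both promoters carry their TATAA and CCAAT matches in the same order.

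Gstp2 was at 0.599 to 1.94 CPM in Te Intact mice, near the limit of 3 reads in the GDX arms, and moved in the direction of Gstp1. It was 0.77 ± 0.25 higher in Te than in Ov Intact mice (log2, SE, adjusted p = 0.0224, edgeR) and changed by -1.38 after castration (2.38e-05) and by -0.88 after ovariectomy (0.00592). With so few reads against those of Gstp1, misassigned Gstp1 reads and Gstp2 reads cannot be told apart.

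Of 16 tested relatives of the members (23 listed), 2 were higher and 2 lower in Te Intact mice, near the 11.3% and 14.1% of all genes. Beside Gstp2 the P450 gene Cyp2d22 was higher, by 0.41 (adjusted p = 0.00187, edgeR). Cyp7a1, the rate-limiting enzyme of the classical route to bile acids, was lower by -1.54 (adjusted p = 2.31e-05, edgeR), opposite to Cyp7b1 of the alternative route, and Nudt19, another peroxisomal coenzyme A diphosphatase, was lower by -0.36. The median of the 16 was 0.02.

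**Figure D5:**
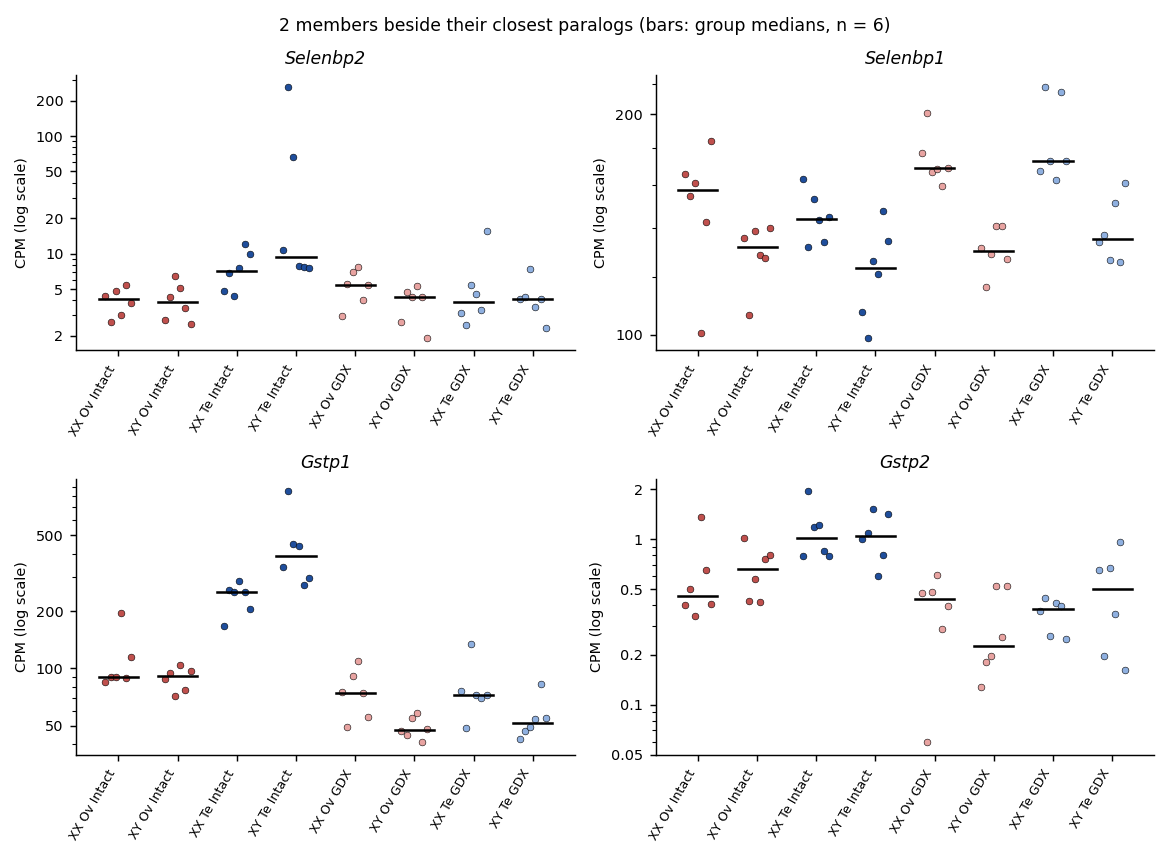
CPM on log axes, 1 point per mouse, for Selenbp2 with Selenbp1 and for Gstp1 with Gstp2 in the 8 groups. Selenbp1 stays between 99.1 and 218 CPM while Selenbp2 reaches 261 CPM in an XY Te Intact mouse, and Gstp2 reaches at most 1.94 CPM.

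The wider pathway was read from gene lists that were chosen with earlier results of these data known. Their counts describe the data and are not independent support. All 14 other genes known as higher in male mouse liver were higher in Te than in Ov Intact mice, against 11.3% of all tested genes. Their median log2 difference was 3.50. All 14 were lower after castration (median -3.61, edgeR), against 29.9% of all genes. Cyp4a12b, a fatty acid omega-hydroxylase, and Hsd3b5, a male-specific hydroxysteroid dehydrogenase, differed most, by 8.16 and 7.24, and the complement gene C8b and the receptor gene Egfr least, by 1.08 and 1.86. After castration Hsd3b5 and Cyp4a12b changed by -8.03 and -6.33. After ovariectomy 2 of the 14 rose and 4 fell, against 36% and 33.4% of all genes. In castration minus ovariectomy 11 passed as lower, against 2.82%. None of the 14 passed between Te GDX and Ov GDX mice, where 0.0908% of all genes did.

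Of 17 genes known as higher in female mouse liver, 16 were lower in Te Intact mice (median -5.45, edgeR), against 14.1% of all tested genes. A1bg was at -7.94 and the sulfotransferase Sult2a1 at -7.79. After castration 12 rose, among them the P450 gene Cyp2b13 (6.11), against 33.4% of all genes. After ovariectomy 2 rose and 5 fell, against 36% and 33.4%. In castration minus ovariectomy 10 passed as higher, against 2.78%. In GDX mice 5 of the 17 remained lower in Te mice, against 0.0584% of all genes. Among them were Cyp3a41a (-5.10) and Cyp3a41b (-4.73), P450 genes of the Cyp3a family.

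Of 21 tested genes of GH and androgen signalling, 3 were higher and 8 lower in Te than in Ov Intact mice. Of all tested genes 11.3% were higher and 14.1% lower. Bcl6 was higher by 1.72 ± 0.24 (log2, SE, adjusted p = 3.86e-07, edgeR), with 7.29 to 19.4 CPM in Ov Intact mice (median 14.1) and 15.1 to 89.4 CPM in Te Intact mice (median 45.6). Cux2 was lower by -5.31 (adjusted p = 6.06e-13, edgeR), with 3.29 to 77.8 CPM in Ov (median 19.6) and 0.214 to 2.16 CPM in Te Intact mice (median 0.520). The Cux2 arms did not overlap, and those of Bcl6 did at their ends. Hnf4a was higher by 0.43 and the prolactin receptor gene Prlr lower by -1.15.

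After castration 13 of the 21 rose and 2 fell, against 33.4% and 29.9% of all tested genes. After ovariectomy 11 rose and 1 fell, against 36% and 33.4%. In the test of castration minus ovariectomy 5 passed as higher and 1 as lower, against 2.78% and 2.82% of all genes. Cux2 rose after castration by 6.04 (edgeR), to a median of 46.0 CPM in Te GDX against 37.4 CPM in Ov GDX mice, and the estrogen receptor gene Esr1 by 1.52, and after ovariectomy their values were 0.59 (adjusted p = 0.0933, edgeR) and 0.69 (6.24e-06). The genes that fell after castration were Bcl6, by -0.82, and the GH receptor gene Ghr, by -0.58. In Ov mice the median of Ghr was also lower with GDX, at 542 against 675 CPM in Intact mice. That of Bcl6 was higher there, at 26.0 against 14.1 CPM. None of the 21 passed between Te GDX and Ov GDX mice, where Cyp2d9 and 0.0908% of all genes did.

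Among 7 tested partners of Cyp7b1 in oxysterol and bile acid metabolism, 2 were higher and 3 lower in Te Intact mice. The shares of all tested genes were 11.3% and 14.1%. Cyp8b1, the sterol 12-alpha-hydroxylase, was higher by 0.81 (adjusted p = 0.00835, edgeR) and Cyp27a1, the sterol 27-hydroxylase, by 0.53 (2.91e-05). Cyp7a1 and Hsd17b6 were lowest, at -1.54 and -0.89.

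The genes most like each member were found by Pearson's r of log2 CPM over the 48 mice, among 12863 genes. These values describe points that share groups, library makeup and depth. Cyp2d9 was most like Tmem19 (r = 0.939), Nox4 (0.930) and Cyp2u1 (0.930). Elovl3 was most like Mup21 (0.932), Cyp4a12a (0.917) and Trip4 (0.915). Cyp7b1 was most like ENSMUSG00000094793 (0.956, no symbol attached here), Mup1 (0.954) and Mup7 (0.949). Genes of the major urinary proteins (Mup) also led for Nudt7, with Mup3 at 0.966, Mup10 at 0.961 and the peroxisomal carrier gene Slc25a17 at 0.960. For Gstp1 they were ENSMUSG00000103653 (0.976), Mup20 (0.954) and Mup21 (0.917). Selenbp2 had no equally close gene, its highest values being ENSMUSG00000117780 (0.726), Serpina4-ps1 (0.721) and Bok (0.719). Among the members themselves r ranged from 0.557 to 0.894.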

How the data were processed

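Liver mRNA libraries (KAPA mRNA HyperPrep), 1 per mouse, were made from snap-frozen tissue of 48 FCG mice. The deposited table holds raw counts per gene, which the authors obtained by aligning and counting reads with STAR 2.7.10a on build GRCm39. The annotation release and strand setting are not given in the sources used here, and DESeq2 1.36.0 is also named in the submitters' notes. A symbol was attached to 31020 of the 55414 gene identifiers (56.0%). The 4 summary lines for unmapped, multimapping, ambiguous and unannotated reads entered neither library sizes nor tests, and together with the gene reads they gave the shares of all reads. Values per mouse are CPM after TMM scaling, except the 3-read limit and the Xist and Y-linked values, which are relative to gene reads without TMM.

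Groups were taken from genotype and treatment in the labels. Mice were numbered within groups in accession order, and since no label ties them to litters, p-values measure the spread between these mice. The main test was edgeR 4.0.16 (R 4.3.3, limma 3.58.1), with filterByExpr, TMM, a mean for each of the 8 groups over all 48 mice, the robust quasi-likelihood test and Benjamini-Hochberg adjustment over 15414 genes at 0.05. Standard errors are the log2 fold change divided by the square root of F. Exact permutation tests compared groups of 6, and 100000 permutations tested correlations (scipy 1.17.1). Alternatives were library totals, RLE size factors, no filter, a minimum of 10 counts in every mouse, a fit of the compared groups only, 1 surrogate variable (sva 3.50.0), DESeq2 1.42.0, each mouse left out in turn, and, after the study, 47 mice without XX Te Intact mouse 5. Leaving out XY Te Intact mice 2 and 3, whose Selenbp2 was above 5 times their group median, was added after seeing the data. The edgeR fit was also run on simulated counts in which only Te Intact mice were made to differ. That run is not used as support here.

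The 6 genes, the gene lists and the comparisons were chosen with earlier results of these data known. From each list at most 4 genes past the threshold were named, the 2 highest and the 2 lowest, and for each member the 3 genes of highest r over all mice among those whose average log2 CPM was 0 or more. A gene that this rule would name is not reported here. Shared 50-base windows were counted in the GENCODE vM1 coding transcripts, an older annotation than the one counted on, and no coordinates were taken from it. Counts limit precision only at low levels, with the 3-read limit covering counting error only.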

Additional observations from a re-analysis of the deposited data

Results flagged for a closer look

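In 48 sets of 6 mice, 1 for each gene and group, 4 values stood farther from their group than a Dixon test at 95% allows, where chance gives about 1 in 20 sets or 2.4. In XX Ov Intact mouse 4, Cyp2d9 was lowest at 9.17 CPM against a group median of 23.1, Elovl3 lowest at 0.729 CPM against 6.17, and Gstp1 highest at 194 CPM against 90.3. Elovl3 was highest in XX Te GDX mouse 4, at 21.6 CPM against a median of 7.58.

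The change after castration differed from the change after ovariectomy in all 6 genes by the edgeR test of the difference, by -4.42 for Elovl3, -2.41 for Cyp2d9, -2.26 for Selenbp2, -1.62 for Cyp7b1, -1.59 for Gstp1 and -0.93 for Nudt7 on the log2 scale. Those of Selenbp2 and Nudt7 missed the threshold without XY Te Intact mice 2 and 3. The contrast contains the gonadal difference of Intact mice with its sign turned and is not independent of it.

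The change after castration differed between XX and XY mice by 3.4 for Selenbp2, 2.44 for Elovl3, 1.49 for Cyp7b1 and 1.42 for Gstp1 on the log2 scale (edgeR). None of the 4 passed without XY Te Intact mice 2 and 3, where Elovl3 was still at 2.25, and none without XY Te GDX mouse 1.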

How the results depend on the processing

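No value of a member changed direction under any alternative where it was called. Of the alternative values for single members, 599 kept their side of the threshold, 42 lost the call and 7 gained it. Fits that left out 1 mouse entered this tally only by the lowest and the highest log2 fold change of each member and comparison. Counts of genes called that moved by over 1.5 times are as follows, and their causes were not tested beyond what each alternative leaves out. In the gonadal comparison of Intact mice, the fit of the compared groups alone called 1694 genes (3907 in the main test). For castration minus ovariectomy (863 genes), no filter gave 506, 1 surrogate variable 1893 and leaving out XY Te Intact mice 2 and 3 gave 1426. In GDX mice the gonadal comparison (14 genes, 1 member) gave 7 genes with at least 10 counts in every mouse, 33 genes and 2 members with the compared groups only, and 25 genes with DESeq2. For XX minus XY in Te Intact mice (3 members, 324 genes), no filter gave 1 member and 185 genes, at least 10 counts 121 genes, the compared groups only 0 members and 13 genes, 1 surrogate variable 586 genes, and leaving out the 2 mice 0 members. For XX minus XY in GDX mice (4 members, 5288 genes), library totals gave 2 members and at least 10 counts 3491 genes. For the gonad by chromosome interaction (0 genes), DESeq2 gave 2. For castration by chromosome (4 members, 340 genes), no filter gave 2 members and 191 genes, the compared groups only 1 and 6, 1 surrogate variable 0 and 3, leaving out the 2 mice 0 and 1, and DESeq2 621 genes.

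When single mice were left out, the gonadal, castration and ovariectomy comparisons kept 6, 6 and 3 members, with 3078 to 5624, 9424 to 10314 and 10432 to 10994 genes, so that leaving out XX Te Intact mouse 4, with its Y-linked reads, changed none of these calls. Castration minus ovariectomy gave 5 to 6 members and 656 to 1863 genes (1863 without XX Ov Intact mouse 3), and the gonadal comparison in GDX mice 1 member and 13 to 16 genes. XX minus XY gave 1 to 2 members and 4931 to 6028 genes over all mice, with Cyp2d9 gained in 9 fits, 0 to 3 members and 175 to 562 genes in Te Intact mice (175 without XX Te Intact mouse 1, 562 without mouse 2), and 3 to 4 members and 4544 to 5548 genes in GDX mice, with Nudt7 lost in 5 fits. Gonad by chromosome gave 0 to 1 genes. Castration by chromosome gave 0 members and 4 genes without XY Te GDX mouse 1 and 6 members and 795 genes without XY Te Intact mouse 5. Its Cyp7b1 call was lost in 21 fits, those of Elovl3, Gstp1 and Selenbp2 without XX Te Intact mouse 2 or XY Te GDX mouse 1, those of Gstp1 and Selenbp2 also without XY Te Intact mouse 2, and that of Selenbp2 also without XX Te GDX mouse 6. Leaving out XY Te Intact mouse 2 moved Selenbp2 to 1.59 in the gonadal and -1.31 in the castration comparison. Without XX Te Intact mouse 5, Nudt7 missed the threshold for castration minus ovariectomy (adjusted p = 0.0730) and Cyp2d9 passed it for castration by chromosome (0.0346), both by edgeR.

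Library totals moved the median of all genes from 0.07 to 0.27 after castration, from 0.06 to 0.27 after ovariectomy and from 0.08 to -0.17 for castration by chromosome, and changed the split of higher and lower genes from 1736 and 2171 to 1009 and 2145 (gonadal, Intact), 5147 and 4612 to 7296 and 3211 (castration), 5554 and 5141 to 7355 and 3769 (ovariectomy), 3382 and 2275 to 1208 and 3081 (XX minus XY, all mice), 100 and 224 to 120 and 144 (Te Intact), 3001 and 2287 to 789 and 3406 (GDX), and 87 and 253 to 29 and 455 (castration by chromosome). No paired analysis was possible because the labels carry no replicate numbers. A fit of the compared groups only was not run where a comparison uses all 8 groups.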
